A study of Mus musculus with 6 samples.

Results

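Proximal arterial endothelial cells (ECs) are those that line the large elastic arteries of the lung. Cells given that name here were selected on measured counts in 3 droplet libraries, and their position in the lung was not measured. The counts are UMIs, the unique molecular identifiers that tag single captured RNA molecules. An EC had at least 3 UMIs of Pecam1, Cdh5 and Cldn5 together and at most 2 of the collagens Col1a1 and Col3a1. A proximal arterial cell had in addition at least 10 UMIs of Eln, at least 1 of Cytl1 and Gkn3 together, and at most 1 of the division genes Mki67 and Top2a. These limits found 1488 cells among the 26285 ECs of the 3 libraries. The series has 6 libraries with 59793 cells kept, and in the other 3 the same limits found 13, 74 and 31 more cells, which are described last. All 3 libraries came from lungs of Cxcl12DsRed/+ mice, in which DsRed replaces 1 copy of Cxcl12, so the Cxcl12 transcripts counted come from the other copy. The lungs were taken at embryonic days 15.5 and 18.5 (E15.5, E18.5) and on postnatal day 8 (P8). The cells were sorted as DsRed-positive, CD31-positive, CD45-negative and EpCAM-negative, and reporter-positive cells without CD31 were collected as well. Each age had 1 library, made per the study's methods from several pooled lungs, so age and library cannot be told apart. The ratios between populations were taken within each library, but the cells had been selected on the same counts, so no test was made of them either.

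Elastic arteries carry the pulsatile outflow of the heart. Their walls hold concentric sheets of elastin, a polymer of tropoelastin that is laid on a scaffold of fibrillin microfibrils, guided by fibulins and cross-linked by lysyl oxidases. Most elastin is made by smooth muscle, but the endothelium of large arteries makes it too, beneath its own layer. Arterial ECs in general are known by Notch signalling, SoxF factors and the connexins Gja4 and Gja5, whereas capillary ECs are known by genes such as Gpihbp1, Kdr and Kit.

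The sorted libraries held 63746333 to 117522172 UMIs, and 8451 to 11649 cells passed the limits of at least 700 genes and 0.5% to 10% mitochondrial UMIs. Any pair of them shared 25 to 40 cell barcodes. Levels are the summed UMIs of all cells of a population per 1000000 UMIs (CPM), and ratios are log2 values after adding 0.5 CPM. A gene was called higher or lower in a comparison when its log2 ratio was at least 1 or at most -1 and it reached 50 CPM in either population of each library used. Bracketed ranges are exact 95% Poisson intervals, which cover counting error alone. Every level and ratio below describes 1 library per age, in cells whose choice used Eln, Cytl1 and Gkn3.

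At E15.5, 740 of 8911 ECs met the limits, or 8.30% (95% Clopper-Pearson interval 7.74 to 8.90). At E18.5, 515 of 9083 did, or 5.67% (5.2 to 6.17), and at P8 233 of 8291, or 2.81% (2.47 to 3.19). The share of sorted ECs was therefore lower in the library of each later age. It is a share of the cells that the reporter sort let through. The intervals cover the counting of cells within a library, so they do not test a difference between ages. The limits were fixed UMI counts. Median depth by age was 8707, 5493 and 5590 UMIs in the other ECs and 6476, 8280 and 7232 in the proximal arterial cells. With at least 1000 CPM of Eln per cell in place of 10 UMIs, 749, 526 and 249 cells met the limits. The part of depth in the shares was not tested. Cells with at least 10 Eln UMIs numbered 1105, 722 and 371, so the other ECs of each library still held some Eln-rich cells that cycled or had neither marker.

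By age, the median cell carried 58, 45 and 35 Eln UMIs, while the median of the other ECs was 0, 0 and 1. The spread of Eln was widest at E18.5, where the middle 50% of cells ran from 20 to 135.5 UMIs. Gkn3, a secreted gastrokine, was detected without Cytl1 in 30%, 7.77% and 13.3% of the cells. Cytl1, a small secreted cytokine-like protein, was detected without Gkn3 in 20.9%, 45.4% and 39.1%. Both were found in 49.1%, 46.8% and 47.6%. Between cells with only Gkn3 and cells with only Cytl1, 0 of 1354 genes of at least 100 CPM had a log2 ratio past 1 in the same direction at all ages. The Gkn3-only cells numbered 222, 40 and 31, and the Cytl1-only cells 155, 234 and 91. Both classes rest on detection of 1 UMI and a call was needed at all ages, so the 0 does not show that they are alike. The median cell held 6476, 8280 and 7232 UMIs, against 8707, 5493 and 5590 in the other ECs.

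**Figure D1:**
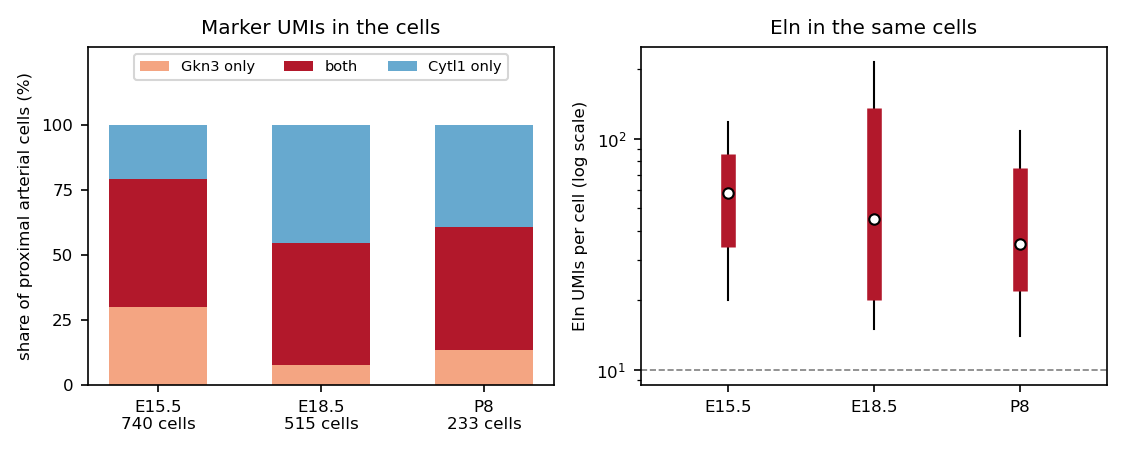
Left, the share in percent of proximal arterial cells with UMIs of Gkn3 only, of both markers or of Cytl1 only, by age. Right, Eln UMIs per cell on a log scale, with the median (point), the middle 50% (bar), the 10th to 90th percentiles (line) and the limit of 10 UMIs (dashed). The Gkn3-only share was 30% at E15.5 and 7.77% at E18.5, and the median Eln count was 58, 45 and 35 UMIs.

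Few cells lay close to the limit on Eln, and their values are given without a test. At E15.5 the 22 cells with 10 to 12 Eln UMIs had 2898 CPM of the elastic fibre gene Fbln5, and the 28 marker-positive cells with 7 to 9 UMIs had 2708 CPM. At E18.5 the levels were 2695 CPM in 27 cells just inside and 2608 CPM in 34 just outside. At P8 they were 3449 CPM in 19 cells and 2659 CPM in 17. Mgp was 1274, 852 and 2824 CPM just inside and 1002, 794 and 1247 CPM just outside, so it stood further apart at P8 than Fbln5 did.

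The stretches of 250 bases before the transcription starts of Gkn3, Cytl1 and Sfrp2 are shown because Gkn3 and Cytl1 define the cells and Sfrp2 is among the genes with the highest ratios over the other ECs. They are RefSeq promoter sequences of GRCm38.p6, written from 5′ to 3′ in the direction of the gene, from chr6:87388936-87389185 on the minus strand, chr5:37735269-37735518 on the plus strand and chr3:83766071-83766320 on the plus strand. Capitals mark CACCC or its reverse complement GGGTG, the letters that Klf factors bind.
Gkn3: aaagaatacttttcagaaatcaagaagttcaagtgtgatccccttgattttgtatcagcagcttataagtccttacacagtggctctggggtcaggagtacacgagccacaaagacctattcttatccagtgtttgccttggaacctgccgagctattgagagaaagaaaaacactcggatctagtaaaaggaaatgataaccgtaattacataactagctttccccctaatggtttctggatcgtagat
Cytl1: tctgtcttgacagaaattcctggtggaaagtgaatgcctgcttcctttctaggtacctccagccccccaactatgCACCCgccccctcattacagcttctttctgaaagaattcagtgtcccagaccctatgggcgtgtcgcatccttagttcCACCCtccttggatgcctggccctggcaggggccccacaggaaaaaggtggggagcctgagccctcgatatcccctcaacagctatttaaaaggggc
Sfrp2: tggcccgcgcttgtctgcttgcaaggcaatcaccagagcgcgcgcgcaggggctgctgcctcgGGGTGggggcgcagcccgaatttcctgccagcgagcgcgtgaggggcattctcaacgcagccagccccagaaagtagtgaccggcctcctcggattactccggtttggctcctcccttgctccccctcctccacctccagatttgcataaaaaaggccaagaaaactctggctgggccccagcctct
CACCC occurred on either strand 2 times before Cytl1, 1 time before Sfrp2 and not before Gkn3. It was present in 51.3% of 27025 promoter stretches of this length. ACAAT, the core of SoxF sites, and TGGGAA, the core bound by the Notch effector Rbpj, were searched on both strands as well and were found in none of the 3, against 28.3% and 21.5% of all stretches. These counts describe the letters of these windows only.

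Against the other ECs of the same library, 121 of 2957 genes were higher at all 3 ages (4.09%) and 78 were lower (2.64%). The 10 genes with the highest mean ratio were Sfrp1, Sfrp2, Mgp, Krt18, Lox, Mfap5, Cpe, Ctsh, Bgn and Plek2. They include Wnt-binding secreted proteins, an inhibitor of calcification, elastic fibre proteins and a proteoglycan. Sfrp1, a secreted frizzled-related protein that binds Wnts, stood by age at 90.3 CPM (82.5 to 98.7), 63.5 CPM (56.4 to 71.2) and 219 CPM (199 to 240). In the other ECs it was at 3.40, 0.699 and 0.253 CPM. Sfrp2, its relative, stood at 726 CPM (703 to 749), 199 CPM (186 to 212) and 102 CPM (88.2 to 116), and at 21.1, 2.0 and 0.775 CPM in the others. Both were higher in the proximal arterial cells at each age, Sfrp2 by most at the 2 later ages and Sfrp1 by most at P8.

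Mgp, which keeps vessel walls from calcifying, was at 3007, 2335 and 5648 CPM in the proximal arterial cells and at 119, 68.4 and 62.3 CPM in the other ECs. Krt18, a keratin of simple epithelia, was at 306, 316 and 300 CPM against 13.8, 15.6 and 1.77 CPM. Krt8, the usual partner of Krt18, was at 8.77, 5.07 and 0.486 CPM, and the epithelial gene Cdh1 had 0 UMIs in the cells at each age. Cpe, a carboxypeptidase that processes peptide hormones, was at 66.3, 398 and 460 CPM against 13.5, 13.4 and 3.64 CPM. Ctsh, a lysosomal cathepsin, was at 919, 526 and 943 CPM against 36.1, 48.0 and 17.7 CPM. Plek2, a pleckstrin-domain protein, was at 109, 79.8 and 96.6 CPM against 7.67, 3.93 and 1.92 CPM. Mgp, Krt18, Cpe, Ctsh and Plek2 were above the other ECs in each of the 3 libraries.

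**Figure D2:**
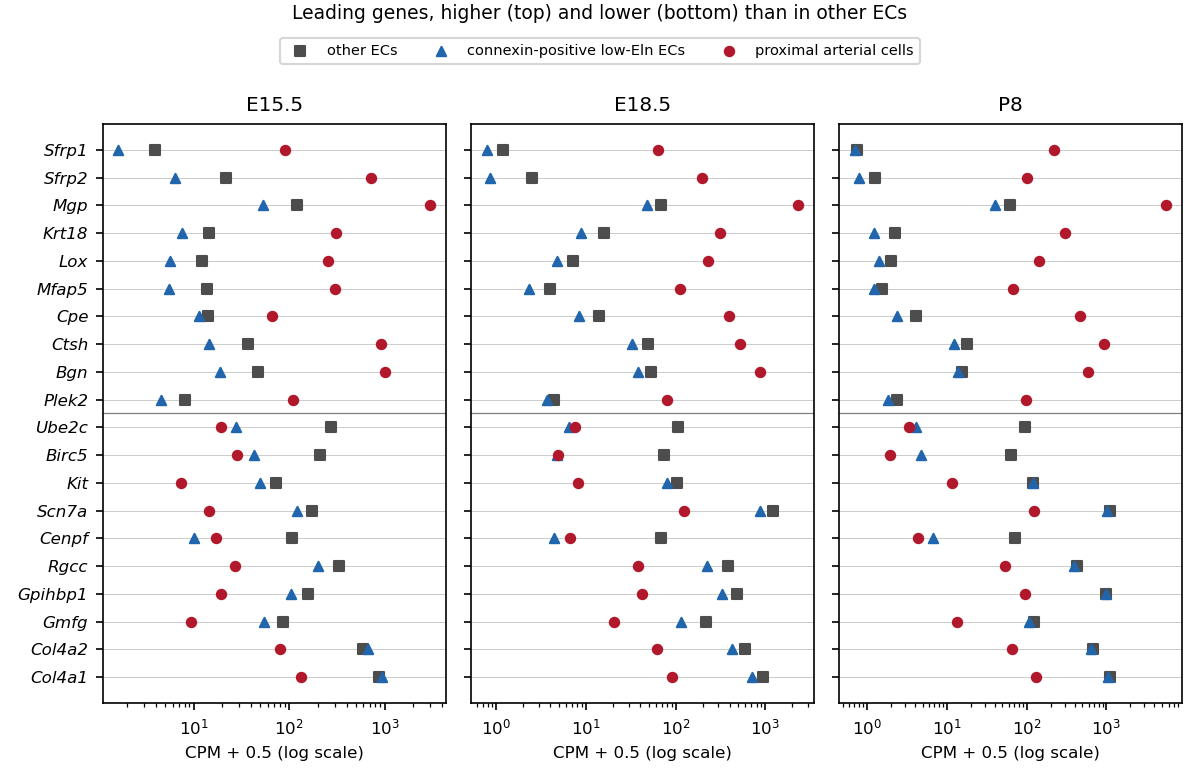
Levels in CPM plus 0.5 on a log scale, by age, of the 10 genes highest and the 10 lowest relative to the other ECs, in proximal arterial cells (circles), other ECs (squares) and connexin-positive low-Eln ECs (triangles). The circles of the upper 10 genes lie to the right in all panels, with Mgp at 3007, 2335 and 5648 CPM, while for Ube2c, Birc5 and Cenpf they lie near the triangles.

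Among genes listed as building elastic fibres around Eln, most calls were higher, though many of the genes were not called. Of 21 listed genes, 9 reached 50 CPM in all 3 libraries and 7 of these were called higher and 0 lower, beside the 4.09% and 2.64% of all genes tested. Their median log2 ratio was 2.91, against -0.04 for all 2957 genes. A gene can pass that level through the population in which it is high, so the whole list was also counted, where 9 of 21 were higher and 1 lower with a median of 0.77. Counted that way, 2.44% of 20800 genes with a UMI were higher and 2.34% lower, with a median of -0.03. Fbln5, the fibulin that tethers elastin to cells, was at 5199, 4896 and 3448 CPM against 389, 539 and 316 CPM. Fbln2 was at 2170, 1673 and 958 CPM against 132, 109 and 91.5 CPM. Lox, which cross-links elastin, was at 252, 229 and 142 CPM against 11.8, 6.73 and 1.53 CPM. Mfap5, a microfibril protein, was at 301, 112 and 67 CPM against 13.2, 3.51 and 1.03 CPM. The fibrillin Fbn1 and the latent TGF-beta binding proteins Ltbp3 and Ltbp4 were the other genes called. Across the cells, Spearman coefficients with Eln were negative for Fbn1, at -0.25, -0.51 and -0.31 by age, and positive for Ltbp3 and Ltbp4. The 1 gene of the whole list that was lower was Fbn2, a fibrillin of early development. It was at 13.3, 2.64 and 0 CPM against 32.3, 9.05 and 0.691 CPM. With no UMI in the proximal arterial cells at P8, its direction there is uncertain.

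The list of other wall matrix genes held calls in both directions. Of 23 listed genes 11 reached the level, 7 were higher and 0 lower (4.09% and 2.64% of all tested), with a median of 3.12. Over the whole list 8 were higher, beside 2.44% of all genes, and Postn, Tgfbi and Hapln1 were lower, 3 genes beside 2.34%, with a median of 1.03. Fibronectin, Fn1, was at 1345, 413 and 313 CPM against 77.9, 24.1 and 66.1 CPM. Bgn, the small proteoglycan biglycan, was at 1005, 881 and 584 CPM against 47.0, 53.2 and 15.2 CPM. Htra1, a secreted protease, was at 1255, 675 and 644 CPM against 65.5, 27.1 and 35.4 CPM. Ctgf, Cdh13 and Clu were called as well.

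The basement membrane went the other way for its most abundant collagen. Col4a1, a chain of type IV collagen, was at 132, 89.9 and 131 CPM in the proximal arterial cells and at 871, 952 and 1109 CPM in the other ECs. Col4a2, the chain it pairs with, was at 78.8, 62.1 and 65.6 CPM against 597, 592 and 678 CPM. These were the 2 genes called of 8 tested, beside 2.64% lower of all tested, and the median of the 8 was 0.02. Without the minimum level Nid2 and Col15a1 were lower too, making 4 of 15 against 2.34% of all genes. The levels in the proximal arterial cells were lower without cells of high doublet scores. RNA of another EC type in a cell can raise its score, so a fall is built into leaving such cells out. Whether doublets gave these levels was not tested. With the 8% of cells of the highest scores left out, a choice made after the data had been seen, Col4a1 was at 57.7, 19.1 and 45.1 CPM and Col4a2 at 33.7, 11.8 and 16.7 CPM in the cells that remained, and their mean ratios went from -3.06 to -4.69 and from -3.17 to -5.01.

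In the Wnt list 7 of 26 genes reached the level, and Sfrp1, Sfrp2 and Dkk2, all secreted Wnt inhibitors, were higher and 0 lower, beside 4.09% and 2.64% of all genes tested. Dkk2, a secreted Wnt antagonist that is also used as an arterial marker, was at 423, 522 and 231 CPM against 130, 43.5 and 4.52 CPM. Over the whole list the ligand Wnt11 was higher as well, and the antagonist Wif1 and the feedback gene Nkd1 were lower, so that 4 were higher and 2 lower beside 2.44% and 2.34% of all genes, with a median of 0.23. Wif1 was at 0.187, 2.42 and 7.77 CPM against 4.39, 21.9 and 70.3 CPM. In the TGF-beta and BMP list 2 of 11 tested genes were higher, Bmp4 and Id2, and 0 were lower (4.09% and 2.64% of all tested). Over all 23 genes of the list 2 were higher and 1, Inhbb, was lower, beside 2.44% and 2.34% of all genes, and the median of -0.01 was near the -0.03 of all genes. The ligand Bmp4 was at 333, 203 and 92.8 CPM against 13.3, 11.1 and 30.9 CPM. Id2, a transcriptional inhibitor that BMPs induce, was at 332, 323 and 391 CPM against 80.9, 95.6 and 141 CPM.

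Genes of the blood-facing surface were also called. Von Willebrand factor, Vwf, which captures platelets and is stored by ECs of large vessels, was at 627, 707 and 1107 CPM against 66.1, 176 and 101.4 CPM. Procr, the protein C receptor, was at 77.6, 149 and 112 CPM against 38.4, 66.3 and 14.0 CPM. These were 2 of 8 tested haemostasis genes, with 0 lower, beside 4.09% and 2.64% of all tested. Over the whole list 5 of 19 were higher and 0 lower, beside 2.44% and 2.34% of all genes, with a median of 0.66. Of 7 tested vasomotor genes Ptgis, the prostacyclin synthase, and Nos3, the endothelial nitric oxide synthase, were higher and 0 lower (4.09% and 2.64% of all tested). Over the whole list of 17 the peptide gene Nppc was higher as well and the receptor subunit gene Ramp3 was lower, so that 3 were higher and 1 lower beside 2.44% and 2.34% of all genes, and the median was 0.32. The summed level of the list was, by age, 3817, 4332 and 5665 CPM in the proximal arterial cells and 1916, 4736 and 5605 CPM in the other ECs, and was thus lower at E18.5. Ptgis was at 167, 109 and 86.5 CPM against 41.8, 15.4 and 23.5 CPM, and Nos3 at 120, 100 and 94.2 CPM against 48.2, 45.3 and 35.6 CPM. The flow-induced factors Klf2 and Klf4 were not called, with Klf2 ratios of 0.93, 0.76 and 0.72.

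General arterial genes set the cells apart much less. Of 24 listed genes 21 were tested, 4 were higher (Jag1, Bmx, Dkk2 and Gata6) and 0 lower, beside 4.09% and 2.64% of all tested, and the median was 0.26. Over the whole list 5 were higher, Hey2 being the fifth, and 0 lower, beside 2.44% and 2.34% of all genes, with a median of 0.28. The paper lists Jag1 and Gata6, like Fbn1, among the genes of its distal arterial subpopulation. The Notch ligand Jag1 was at 423, 402 and 148 CPM against 113, 67.2 and 24.7 CPM. Bmx, a kinase of arterial endothelium, was at 254, 202 and 209 CPM against 40.8, 36.3 and 27.4 CPM. Hey2, a Notch target, was at 107, 61 and 47.6 CPM against 8.17, 1.89 and 2.41 CPM and missed the level at P8. The other Notch ligand of arteries, Dll4, was at 66.6, 80.2 and 213 CPM against 65.6, 173 and 202 CPM. Gja4 was at 1008, 1584 and 947 CPM against 740, 962 and 830 CPM, and Sox17 at 647, 981 and 375 CPM against 656, 852 and 651 CPM. Arterial genes were thus present in the cells, most at levels near those of the other sorted ECs.

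Cxcl12 itself, the reporter gene, was at 812, 1255 and 972 CPM in the proximal arterial cells and at 744, 1228 and 1129 CPM in the other ECs, ratios of 0.13, 0.03 and -0.21. These levels pool unlike cells. In the terciles by Eln described below, Cxcl12 was at 1274, 1819 and 1516 CPM in the lowest by age. In the highest it was at 269, 478 and 234 CPM. Slc6a6, Stmn2 and Gja4 of the distal arterial list were lower there too, Gja4 by least. Of the 5 distal arterial genes tested 0 were called, but over the whole list of 8 Cxcr4 and Alox12 were lower and 0 higher, 2 genes beside 2.34% of all genes, with a median of -0.23. The Cxcl12 receptor gene Cxcr4, which is known in distal arterial tips, was at 8.40, 8.37 and 20.9 CPM against 34.6, 34.8 and 71.8 CPM. The lipoxygenase gene Alox12 was at 7.84, 11.9 and 2.43 CPM against 30.1, 54.1 and 10.4 CPM.

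The lowest genes were Ube2c, Birc5, Kit, Scn7a, Cenpf, Rgcc, Gpihbp1, Gmfg, Col4a2 and Col4a1. Ube2c, Birc5 and Cenpf are cell division genes, and the choice of cells had limited Mki67 and Top2a, so nothing is read from them. Gpihbp1, which anchors lipoprotein lipase in capillaries, was at 18.9, 41.4 and 94.7 CPM against 157, 480 and 995.1 CPM. Kit, a receptor kinase of general capillary cells, was at 6.91, 7.71 and 11.2 CPM against 71.5, 102 and 119 CPM. The sodium channel gene Scn7a was at 13.8, 123 and 125.3 CPM against 172, 1209 and 1116 CPM. Rgcc, a regulator of the cell cycle and complement response, was at 26.9, 37.2 and 53.4 CPM against 333, 384 and 424 CPM. Of 6 capillary genes tested, Kit, Kdr and Gpihbp1 were lower and 0 higher, beside 2.64% of all tested, with a median of -1.63, and without the minimum level 7 of 18 were lower and 0 higher, beside the 2.34% of all genes. These levels too were lower without the cells of high doublet scores, a fall that the score itself can build in. Whether doublets gave them was not tested. Without the 8% of highest scores, Gpihbp1 was at 2.36, 9.18 and 22.8 CPM, and its mean ratio was -5.62 in place of -3.31. The mean ratio of Kit went from -3.43 to -4.61, of Scn7a from -3.35 to -5.28, of Rgcc from -3.31 to -5.49 and of Gmfg from -3.28 to -5.09. The proximal arterial cells left out were 48, 55 and 17, or 6.49%, 10.7% and 7.30%. At E15.5 Scrublet itself called 4.73% of the proximal arterial cells and 1.60% of the other ECs doublets. At E18.5 and P8 it called 0 cells. Of 9 venous genes, counted without the minimum level, Selp, Vwf and Amigo2 were higher and Aplnr and Nr2f2 lower, beside 2.44% and 2.34% of all genes. The venous factor Nr2f2 was at 2.05, 5.73 and 1.94 CPM against 19.4, 19 and 8.64 CPM.

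The same comparison was made with ECs that had at least 3 UMIs of Gja4 and Gja5, fewer than 10 of Eln and at most 1 of Mki67 and Top2a. They made up 50.9%, 49.9% and 60.6% of ECs, so the limit is a loose one and they are called connexin-positive low-Eln ECs here. Against them, 107 of 2912 genes were higher at all ages (3.67%) and 65 were lower (2.23%). Sfrp2, Sfrp1, Mgp, Krt18 and Lox led again, with mean log2 ratios of 7.23, 6.82, 6.20, 6.15 and 5.92. Col4a2, Scn7a, Gpihbp1, Col4a1 and Igfbp7 were lowest, with means between -3.05 and -2.91. Without the 8% of highest doublet scores their means were lower still, at -4.85, -4.87, -5.19, -4.52 and -4.24. Igfbp7, a secreted IGF-binding protein, was at 54.5, 71.8 and 304 CPM against 443, 580 and 2016 CPM in the connexin-positive cells. The same 7 elastic fibre genes of 9 tested and the same 7 wall matrix genes of 11 were called higher, and 0 lower, beside the 3.67% and 2.23%. A gene can reach the level through the proximal arterial cells in both comparisons, and these lists were not counted without it here. The repeat is therefore not read as support. Of 21 arterial genes tested, Jag1, Bmx and Dkk2 were still higher and 0 were lower, beside the 3.67% and 2.23%, and the median was -0.08. That list was counted with Gja4 and Gja5, on which the connexin-positive cells had been chosen, which lowers its median, so nothing is read from the median. Division genes stood close, with Ube2c at 18.7, 7.05 and 2.91 CPM against 26.9, 5.93 and 3.68 CPM. Cxcl12 was at 1137, 2058 and 1414 CPM in the connexin-positive cells, ratios of -0.48, -0.71 and -0.54. A stricter comparison, chosen after the data had been seen, took low-Eln ECs with a UMI of Alox12 and none of the markers. Leaving out Alox12 itself, 107 of 2936 genes were higher than in these cells at all ages (3.64%) and 71 were lower (2.42%).

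Markers of smooth muscle moved with the proximal arterial cells. The 10 smooth muscle genes summed to 436, 188 and 128 CPM, against 69.6, 27.3 and 31.8 CPM in the other ECs, and 5 of 10 (Acta2, Tagln, Myl9, Lmod1 and Pdgfrb) had ratios past 1 at all ages and 0 were lower, counted without the minimum level and beside 2.44% and 2.34% of all genes. Tagln, an actin-binding protein, was at 193, 71.6 and 69.9 CPM against 13, 5.63 and 10.5 CPM, and Acta2, smooth muscle actin, at 94.8, 44.7 and 20.9 CPM against 11.2, 9.51 and 7.03 CPM. Myl9, a myosin light chain, was at 122, 65.0 and 24.3 CPM against 39.8, 8.94 and 9.89 CPM. Of the other contractile genes, Myh11 was at 0.560, 0.220 and 0 CPM and Cnn1 at 0.933, 0 and 0 CPM, and neither was called. The part of smooth muscle RNA in the matrix gene levels was not tested beyond the values without such cells that follow. Cells with over 2 UMIs of Acta2, Tagln and Myh11 made up 20.7%, 8.16% and 11.2% of the proximal arterial cells and 1.30%, 0.362% and 0.906% of the other ECs. Without them, 118 genes were higher and 76 lower, and Mgp, Lox and Mfap5 had mean ratios of 5.51, 5.23 and 4.97. The 10 fibroblast genes summed to 73.0, 75.6 and 45.2 CPM against 27.4, 21.4 and 15.8 CPM, with Col1a2 at 39.6, 34.4 and 17.5 CPM, and 2 of them were higher and 1 lower on the same count. The immune list summed to 10.7 to 48.5 CPM with Ptprc at 0 UMIs in the cells at each age, and the mesothelial list to 1.76 to 14.4 CPM. The epithelial list summed to 314 to 368 CPM, most of it Krt18. The lymphatic list summed to 45.3, 147 and 861 CPM, the last of which was 848 CPM of Lyve1.

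Within the proximal arterial cells some genes varied along with Eln. The cells of each library were ordered by Eln per UMI and split into terciles of 77 to 247 cells. The lowest tercile held deeper cells, with a median of 7661, 9412.5 and 10958 UMIs against 5484, 7752 and 6214 in the highest. Given from the lowest to the highest tercile, Sfrp1 at E15.5 was at 20.3, 86.7 and 206 CPM. The E18.5 cells had 1 UMI in 172 cells of the lowest tercile (0.563 CPM, 0.0143 to 3.14), 16.7 CPM in the middle and 199 CPM in the highest. The P8 cells had 2 UMIs in 78 cells (2.21 CPM, 0.268 to 7.98), 98.6 CPM and 735 CPM. Sfrp2 at E18.5 was at 1.13, 39.6 and 638 CPM. Both Wnt-binding genes were thus near the floor in the lowest tercile at E18.5, as Sfrp1 was at P8, and highest in the Eln-richest cells.

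Bgn was at 446, 1090 and 1788 CPM over the terciles of E15.5, at 195, 510 and 2209 CPM over those of E18.5, and at 230, 491 and 1307 CPM over those of P8. Igfbp5, another IGF-binding protein, was at 30.6, 123 and 382 CPM over the terciles of E15.5, at 20.8, 146 and 841 CPM over those of E18.5, and at 11.0, 70.0 and 362 CPM over those of P8. Cpe at E18.5 was at 21.4, 253 and 1064 CPM, and in the P8 library at 130, 490 and 994 CPM. Cxcl12 ran against these, with 1274, 659 and 269 CPM over the terciles of E15.5, 1819, 1273 and 478 CPM over those of E18.5, and 1516, 806 and 234 CPM over those of P8. The taurine transporter gene Slc6a6 was at 356, 168 and 215 CPM over the terciles of E15.5, where the middle was lowest, at 843, 523 and 41.6 CPM over those of E18.5, and at 262, 65.2 and 22.9 CPM over those of P8. Gja4 differed less, with log2 ratios of the highest over the lowest tercile of -0.15, -0.53 and -0.49. Its E18.5 level was 1712 CPM (1652 to 1774) in the lowest and 1188 CPM (1130 to 1248) in the highest tercile. The ratios were -0.58, -1.27 and -0.99 for Sox17 and -0.07, 1.13 and 0.47 for Gja5. The ratios of Bmx were 0.38, 0.92 and 0.36, and at E18.5 it was at 151 CPM (counting interval 133 to 170) in the lowest and 286 CPM (258 to 317) in the highest tercile. Fn1 followed Eln at E15.5, with 684, 1427 and 2296 CPM, and at E18.5, with 43.4, 190 and 1153 CPM, but at P8 it was at 348, 261 and 314 CPM. Sfrp1, Bgn, Cpe and Igfbp5 were thus highest, and Cxcl12 lowest, in the cells richest in Eln at all ages, and Fn1 was not.

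**Figure D3:**
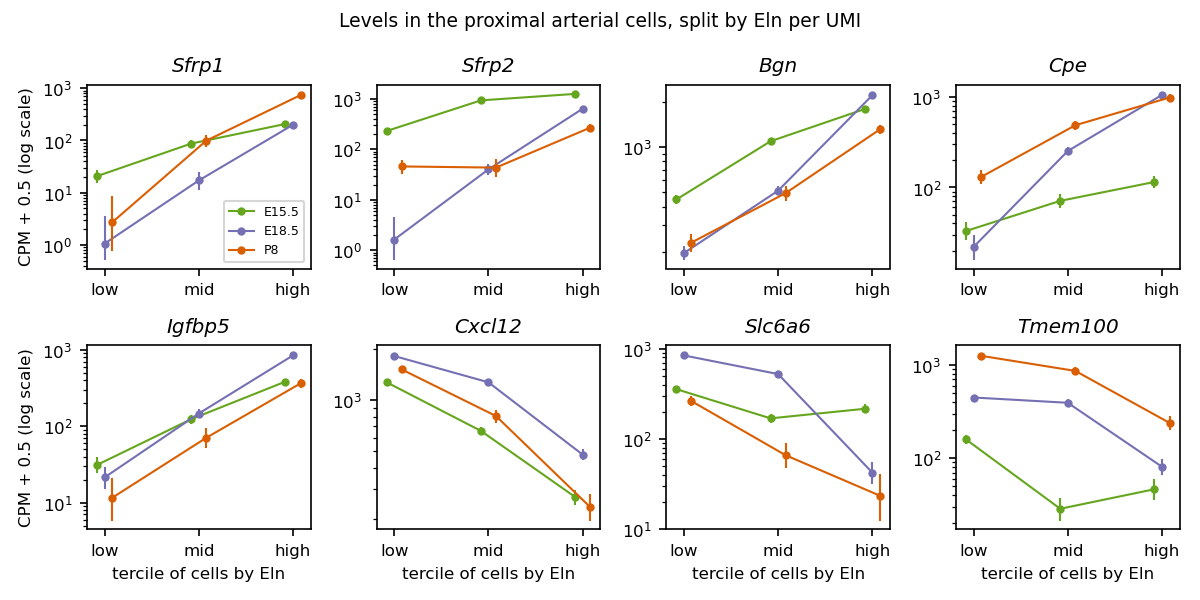
Levels of 8 genes in CPM plus 0.5 on a log scale in the terciles of proximal arterial cells ordered by Eln per UMI, in each library, with exact 95% Poisson intervals as vertical lines. Sfrp1, Sfrp2, Bgn, Cpe and Igfbp5 were highest in the Eln-richest tercile at all ages, while Cxcl12 was lowest there, at 269, 478 and 234 CPM.

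The capillary gene Gpihbp1 was lowest in the cells richest in Eln at each age when all cells were kept. It was at 33.8, 12.6 and 2.87 CPM over the terciles of E15.5, at 51.8, 52.0 and 15.9 CPM over those of E18.5, and at 145, 92.2 and 11.4 CPM over those of P8. Cells among the 8% of highest doublet scores numbered 37, 10 and 1 over the terciles of E15.5, 26, 20 and 9 over those of E18.5, and 9, 7 and 1 over those of P8. With these cells left out and the terciles drawn again, Gpihbp1 was at 2.76, 1.29 and 3.09 CPM, at 4.11, 17.6 and 6.87 CPM, and at 29.2, 25.5 and 10.1 CPM. The tercile richest in Eln was then still lowest in Gpihbp1 at P8, but not at E15.5 or E18.5. Cxcl12 was then at 1359, 597 and 258 CPM, at 1862, 1283 and 443 CPM, and at 1642, 755 and 211 CPM, so its order over the terciles was as before. Slc6a6 at P8 was then at 260, 41.2 and 2.01 CPM, and Igfbp5 at P8 at 5.07, 84.4 and 372 CPM. Bgn was at 518, 1173 and 1800 CPM, at 195, 545 and 2345 CPM, and at 248, 555 and 1335 CPM, again in the same order.

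Smooth muscle markers were higher in the highest than in the lowest tercile at E15.5 and E18.5. At P8 Tagln was higher there too, but its counting intervals overlapped, at 42.9 to 75.3 CPM in the lowest and 65.8 to 119 CPM in the highest. Acta2 at P8 was not higher there, on 5 UMIs in the highest against 23 in the lowest tercile. Tagln was at 90.9, 277 and 249 CPM over the terciles of E15.5, at 3.38, 48.6 and 189 CPM over those of E18.5, and at 57.4, 71.6 and 89.5 CPM over those of P8. Acta2 was at 25.4, 23.9 and 9.52 CPM at P8, and at 27.9, 11.8 and 10.1 CPM without the highest doublet scores. Their part in the pattern was not tested.

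As a description across cells, which share a library and differ in depth, Spearman coefficients with Eln over 740, 515 and 233 cells were highest for Bgn (0.68, 0.80 and 0.65), Fbln2 (0.72, 0.81 and 0.48), Ctsh (0.38, 0.78 and 0.57), Htra1 (0.48, 0.72 and 0.50) and Fbln5 (0.65, 0.81 and 0.20). For Cxcl12 they were -0.50, -0.61 and -0.65, for the water channel gene Aqp1 -0.38, -0.62 and -0.49, and for Tmem100, a BMP target of arterial endothelium, -0.30, -0.53 and -0.66. Of 6149 genes 50 had a mean above 0.3 and the median gene was at -0.07. The number above 0.3 was 426 with Pearson residuals in place of log values. The order changed as well. Bgn stayed highest with a mean of 0.766, but Sfrp1 at 0.705 and Cpe at 0.664 were then above Ctsh at 0.626. In cells thinned to 2000 UMIs, the variance over the mean was largest for Malat1 (10.2, 13.8 and 13), Mgp (3.1, 3.90 and 6.20), Igfbp5 (4.43, 4.56 and 3.76), Sparc (3.17, 4.21 and 2.10) and Klf2 (2.84, 2.95 and 3.61), against a median of 1.05 over 934 genes. Malat1 is a nuclear RNA and Klf2 a flow-induced factor.

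Not every proximal arterial cell showed each leading gene. With each cell thinned to 2000 UMIs, Mgp was found by age in 94.7%, 91.4% and 96.1% of cells, against 8.75%, 5.47% and 4.0% of the other ECs. The shares were 99.1%, 99.2% and 99.1% without thinning. Sfrp2 was found in 51.5% (47.8 to 55.2, exact interval), 15.2% (12.2 to 18.6) and 15.2% (10.8 to 20.4) of thinned cells, and in 64.1%, 24.1% and 29.2% of unthinned ones. Sfrp1 was found in 15.7%, 9.34% and 22.9% of thinned and in 32.4%, 19.6% and 35.2% of unthinned cells. As a gauge of free RNA, the alveolar capillary cells with at least 5 Car4 UMIs showed Sfrp2 in 0 of 420 thinned cells at E18.5, which allows a share of up to 0.714%, and Mgp in 0.952%, at a median depth of 7609 UMIs before thinning. This gauge covers the E18.5 library alone, in which 9083 of 9542 cells kept were ECs. None is given for E15.5, where 8911 of 11649 were, or for P8. Thinning left out 6, 1 and 2 proximal arterial cells and 19, 147 and 212 others.

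Between E15.5 and P8 the levels of many genes in the proximal arterial cells differed. Of 3663 genes 450 were higher at P8 (12.3%) and 256 lower (6.99%). In the other ECs 646 of 3719 were higher (17.4%) and 227 lower (6.1%). The genes that were progressively higher, with the largest ratios, were Abi3bp, Plac8, Fmo2, Gm26802, Fam71a, Lyve1, Sema3c and Egr1. Egr1 is an immediate-early gene, a list given below. Gm26802 and Fam71a lie on the same strand just past the ends of Fosb and Atf3, which belong to that list. Whether their counts come from reads of Fosb and Atf3 was not tested. Plac8 was at 1.49, 18.3 and 632 CPM, and in the other ECs at 1.65, 10.4 and 208 CPM. Abi3bp, a matrix protein, was at 0.560, 2.86 and 341 CPM, against 0.328, 16.7 and 204 CPM. Fmo2, a flavin monooxygenase of mature lung, was at 2.61, 61 and 427 CPM, against 0.243, 26.4 and 76.8 CPM. All 3 were higher at P8 in the other ECs as well.

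The genes that were progressively lower were Gm10320, H19, Basp1, Moxd1, Mt3, Lamc3, F10 and 6330403K07Rik. H19, an imprinted fetal RNA, was at 1760, 523 and 6.31 CPM, and at 627, 307 and 58.4 CPM in the other ECs. Basp1, a membrane-associated signalling protein, was at 208, 63.2 and 0.486 CPM, the last of which was 1 UMI, against 79.7, 7.02 and 3.61 CPM. Moxd1, a monooxygenase-like protein, was at 166, 17.4 and 0.971 CPM, against 4.29, 0.956 and 0 CPM. Lamc3, a laminin chain, was at 86.4, 17.6 and 1.46 CPM. H19, Basp1, Moxd1 and Lamc3 were thus at their highest at E15.5 and at or near the floor at P8.

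Over all the proximal arterial cells, elastic fibre genes were at their highest summed level at E15.5. In the tercile richest in Eln, Fbln5 was at 7095, 8259 and 4010 CPM by age and Lox at 329, 419 and 324 CPM, both highest at E18.5. Fbln2 was at 3447, 3139 and 1467 CPM there, highest at E15.5. The part of the mix of cells in the differences between ages was not tested. Of 12 elastic fibre genes tested over time, 6 were lower at P8 (Mfap2, Emilin1, Fbln2, Mfap5, Fbln1 and Efemp2) and 0 higher, beside 6.99% and 12.3% of all genes, with a median of -0.95 against -0.04 for all genes. In the other ECs 3 of these 12 were lower and 1 higher, beside 6.1% and 17.4%, with a median of -0.47 against 0.20. The whole list summed to 9890, 8843 and 6140 CPM in the proximal arterial cells and to 1091, 1321 and 966 CPM in the other ECs. Smooth muscle genes summed to 436, 188 and 128 CPM in the same cells. Of 3 tested over time (Myl9, Tagln and Acta2) all were lower at P8, and 1 of 3 was lower in the other ECs, beside 6.99% and 6.1% of all genes. Their part in the elastic fibre values was not tested. Mfap2, a microfibril protein, was at 409, 209 and 86.5 CPM against 104, 124.7 and 240 CPM, so it was above the other ECs at E15.5 and below them at P8. Ltbp4 was at 741, 651 and 960 CPM. In the wall matrix list 4 of 12 were higher at P8 (Cyr61, Timp3, Cdh13 and Clu) and 2 lower (Fn1 and Vcan), beside 12.3% and 6.99% of all genes. Of the same 12 genes 3 were higher and 1 lower in the other ECs, beside 17.4% and 6.1%.

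For some genes the ratio over the other ECs differed with age. Apoe, a lipid carrier, was at 66.4, 236 and 769 CPM in the proximal arterial cells and at 24.9, 34.6 and 18.4 CPM in the others. Rbp7, a retinol-binding protein, was at 21.3, 26.9 and 140 CPM, against 144, 84.9 and 20.7 CPM, and was thus below them before birth and above them at P8. Gsn, the actin-severing gelsolin, was at 58.8, 119 and 130 CPM against 47.2, 63.6 and 5.95 CPM. Sorbs2, a cytoskeletal adaptor, was at 60.1, 73.4 and 88.4 CPM against 53.3, 17.9 and 3.99 CPM. The cell cycle inhibitor Cdkn1c was at 329, 368 and 674 CPM against 578, 467 and 140 CPM. Bmp6, a BMP ligand, was at 61, 101.2 and 64.1 CPM against 3.96, 15.5 and 114 CPM. Selp, an adhesion receptor for leukocytes, was at 2.43, 3.53 and 69.5 CPM against 0.340, 0.662 and 1.84 CPM, and Vcam1 was at 50.9, 22.9 and 102 CPM against 10.8, 3.14 and 3.91 CPM.

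**Figure D4:**
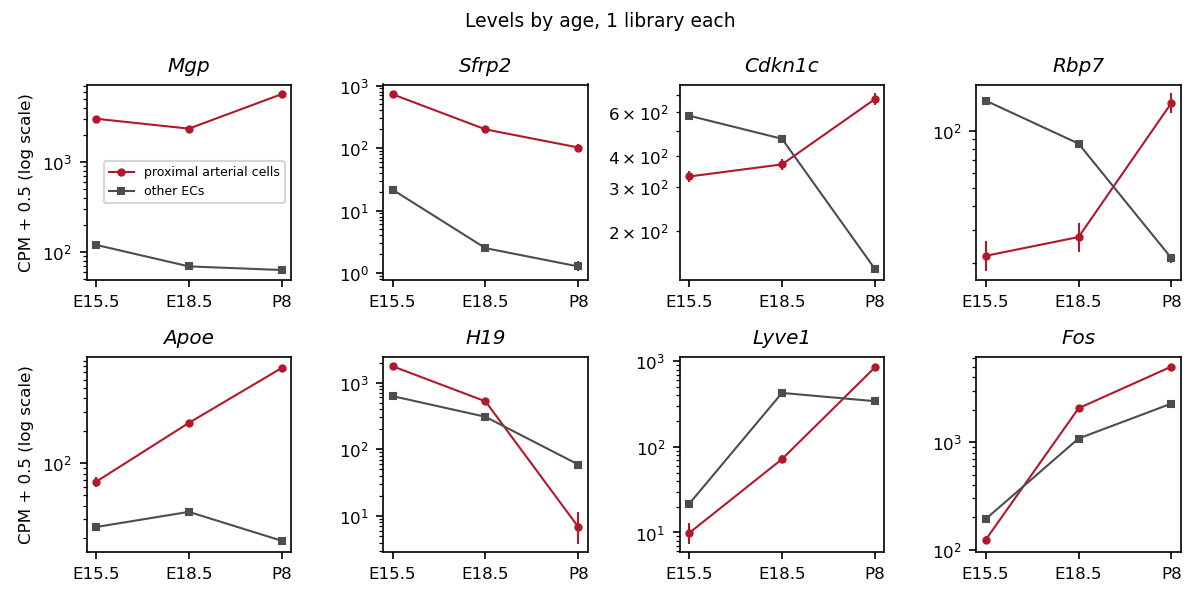
Levels of 8 genes in CPM plus 0.5 on a log scale at E15.5, E18.5 and P8, in proximal arterial cells (circles) and other ECs (squares), 1 library each, with exact 95% Poisson intervals. For Rbp7 and Cdkn1c the proximal arterial cells were below the other ECs at E15.5 and above them at P8, while Fos was higher at P8 in both populations.

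Immediate-early genes, which respond to stress and to tissue dissociation as well as to growth signals, differed between libraries in both populations. All 14 listed genes were higher at P8 than at E15.5 in the proximal arterial cells, and all 14 in the other ECs, beside 12.3% and 17.4% of all genes. They summed to 2169, 11875 and 25421 CPM in the proximal arterial cells and to 2368, 8434 and 17281 CPM in the others. Fos was at 123, 2062 and 5027 CPM against 193, 1080 and 2280 CPM. Their part in the other differences between ages was not tested. Antigen presentation and interferon-linked genes were higher at P8 for 10 of 11 tested and lower for 0, and for 10 of 11 in the other ECs, beside the same shares. Of 11 flow-response genes 5 were higher, among them Klf2 at 1335, 3399 and 5377 CPM and Klf4 at 189, 707 and 1385 CPM, and Pi16 was lower, beside 12.3% and 6.99% of all genes. In the other ECs 7 of 11 were higher and 0 lower, beside 17.4% and 6.1%.

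The same limits were applied to the 3 libraries that had no part in choosing the named genes. The pair of whole lungs shared 140 barcodes. The whole lungs at E18.5 are labelled Cxcl12DsRed/+ and Cxcl12DsRed/DsRed, and the names of the deposited data give the opposite genotypes. The targeted gene itself, Cxcl12, was at 541 CPM (533 to 550) in the ECs of the library labelled null and at 4.47 CPM (3.53 to 5.58) in those of the library labelled control, and in their proximal arterial cells at 1216 and 20.0 CPM. Its level thus goes against the labels, and no difference between genotypes is read from these libraries. ECs made up 29.7% of the cells kept in the library labelled null, 22.1% in the one labelled control and 1.32% in the E13.5 library. The part of doublets, free RNA or smooth muscle RNA in the cells chosen from these libraries was not tested. The library labelled null gave 74 cells of 2721 ECs and the one labelled control 31 of 1824, and E13.5 gave 13 of 168. The 10 leading genes had log2 ratios of 2.55 to 8.07 over the other ECs in the library labelled null, of 1.39 to 8.94 in the one labelled control and of 1.17 to 4.09 at E13.5, where 13 cells gave few UMIs. Sfrp2 was at 252 and 274 CPM in the whole lungs, against 0.440 and 0.0585 CPM, and Mgp at 4879 and 3968 CPM against 137 and 80.7 CPM. Of the 10 lowest genes, the 7 other than Ube2c, Birc5 and Cenpf had ratios of -4.70 to -3.63 in the library labelled null and of -5.78 to -3.36 in the one labelled control. At E13.5 Kit, Scn7a, Rgcc, Gpihbp1 and Gmfg had no UMI in the 13 cells, so no direction is given for them there. In both whole lungs the leading genes were thus higher and these 7 genes lower, in cells chosen by the same limits.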

How the data were processed

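Droplet 3′ libraries (10x chemistry v3) of 6 lung samples were read, and 3 sorted ones, grouped by their labels, entered the comparisons. The authors aligned reads to mm10 with CellRanger (3.0.2 for the 3 sorted libraries used here, per the file headers) and deposited UMI counts per gene and cell, not normalized. The SoupX-adjusted counts of the whole lungs were not used. The cells were selected as the report states, on the deposited counts. The 10 genes of the selection were left out of gene comparisons. UMIs were summed per population and library, scaled to CPM and compared as log2 ratios with a pseudocount of 0.5 CPM. No test was made: ages had 1 library each, and the populations had been selected on the counts compared. The selection, gene lists and the rules for named genes were chosen with earlier results of these data known, so no list is independent evidence. The named genes were the 10 highest and 10 lowest over the other ECs, 5 each over connexin-positive ECs, 8 each progressively higher or lower with age, 5 each by difference of that change, 5 by Spearman coefficient with Eln, 5 by variance over mean, and members of the lists. Others named in the terciles, and Selp, Vcam1 and Cdkn1c over time, were chosen after their values had been seen. Doublets were scored with Scrublet in scanpy 1.11.5. The last 300 bases of the transcripts (GENCODE M21) of 362 named or listed genes were compared with transcripts of other genes. For 31 of them a run of 60 bases was found in another gene's transcript, including Fn1, Cdh13, H19, Gm10320, Ube2c, Cenpf, Gmfg, Sparc and the haemoglobin genes, whose counts are uncertain where reads cannot be assigned.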

Additional observations from a re-analysis of the deposited data

Results flagged for a closer look

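Cells that met the same limits were found in libraries outside the comparison, 13 at E13.5, 74 in the whole lung labelled null and 31 in the one labelled control. With 0 cells, 3 counts would have allowed shares of up to 1.79%, 0.110% and 0.164% of their ECs.

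Only the named and listed genes were searched here, so no share over all genes is given. For 7 of them the log2 ratio over the other ECs was 1 or more at some age and -1 or less at another. Only ages at which either population reached 50 CPM counted for this. Rbp7, H19 and Emp2 had been named because their change with age differed from that of the other ECs. With 1 library per age the difference was not tested. Lyve1, a hyaluronan receptor, had ratios, in order of age, of -1.13, -2.57 and 1.31. Rbp7 had ratios of -2.73, -1.64 and 2.73. The imprinted RNA H19 had ratios of 1.49, 0.77 and -3.11. Emp2, a tetraspan membrane protein, had ratios of 2.44, -0.15 and -1.54. Mfap2, an elastic microfibril gene, had ratios of 1.97, 0.74 and -1.47. The haemoglobin genes Hbb-bs and Hbb-bt, which mark red cell RNA, had ratios of 1.00, -0.94 and -4.47 and of 1.35, -0.43 and -4.85.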

How the results depend on the processing

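Populations were compared within each library, with no test, since they had been selected on the same counts. The counts of cells stayed within 1.5 times under every alternative tried, ranging by age from 587 to 749, 398 to 526 and 184 to 249. The counts of genes moved with the minimum level. With 20 CPM, 199 genes were higher and 147 lower than in the other ECs, 173 and 110 against the connexin-positive ECs, and 698 and 434 between E15.5 and P8. With no CPM minimum but at least 10 UMIs over the populations compared, a stricter choice of genes than the 1 UMI of the report, the numbers were 480 and 487, 382 and 252, and 1305 and 1313. Leaving out an age changes how many libraries a gene must pass. Without P8, 189 genes were higher than in the other ECs and 164 than in the connexin-positive ECs. Without E15.5, 172 and 129 were lower. Over the 3 omissions the counts against the other ECs were 136 to 189 higher and 88 to 172 lower, and against the connexin-positive ECs 122 to 164 higher and 79 to 129 lower. With Pearson residuals 426 genes had a mean Spearman coefficient above 0.3 with Eln. Scrublet called 416 of 11649 cells at E15.5 and 0 at E18.5 and P8, which was taken as a failure to call, so the 8% of cells with the highest scores were left out instead, an alternative chosen after the data had been seen, which gave 131 and 83 genes against the other ECs and lowered the mean ratios of the capillary and collagen genes as given in the report. With a pseudocount of 5 CPM the mean ratio of Sfrp1 was 4.17 and that of Sfrp2 4.62. With cycling cells left out of the other ECs, Ube2c was at -0.41 and Cenpf at -0.09. Of the values of single named genes under an alternative, 550 stayed within the counting interval, 234 moved beyond it and 0 called values changed sign.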

Other observations

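Krt18 stood alone among 5 tested genes of keratins and other intermediate filaments, as the only one called higher in the proximal arterial cells than in the other ECs, and the lamin gene Lmnb1 was called lower, beside 4.09% and 2.64% of all genes tested. Over all 11 genes of the list, without the minimum level, Synm was lower too, so that 1 was higher and 2 lower beside 2.44% and 2.34% of all genes, with a median of -0.80. Vim, the main intermediate filament of ECs, was at 3134, 3727 and 4328 CPM by age, against 4696, 6508 and 4591 CPM. Of 7 tested cell cycle genes 1 was higher and 4 lower, beside 4.09% and 2.64%, and over the whole list of 17, 1 was higher and 8 lower, beside 2.44% and 2.34%, with a median of -1.35. Ccnd2, a cyclin of the G1 phase, was higher, at 166, 309 and 447 CPM against 78.2, 78.3 and 189 CPM. Ccnd1, its relative, was lower, at 16.4, 28.6 and 88.4 CPM against 167, 295 and 364 CPM. Of 3 cell cycle genes tested against connexin-positive ECs, Ccnd1 alone was lower and 0 were higher, beside 2.23% and 3.67% of all genes tested there. Against the other ECs, the remaining cell cycle genes tested and called lower were the division genes Ube2c, Cdk1 and Birc5. The limit on Mki67 and Top2a bears on them. Without the minimum level Ccna2, Cdkn2c, Ccne1 and Ccnb1 were lower too.

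The list of glucocorticoid and maturation genes had 0 of 5 tested genes called against the other ECs, beside 4.09% higher and 2.64% lower of all tested. Over the whole list of 15 Igf2 alone was higher and 0 lower, beside 2.44% and 2.34% of all genes. Between E15.5 and P8, 2 of 6 were higher in the proximal arterial cells, Cdkn1c and the kinase gene Sgk1, and 3 were lower, the imprinted genes Peg3, H19 and Plagl1, beside 12.3% and 6.99% of all genes. In the other ECs 3 of the same 6 were higher and 3 lower, beside 17.4% and 6.1%. Peg3 was at 133, 72.1 and 63.6 CPM against 93.8, 67.9 and 241 CPM in the other ECs. Of the list of endocardial and mesenchymal transition genes, 1 was tested against the other ECs and 0 were called, beside 4.09% higher and 2.64% lower of all tested. Over the whole list of 11 Twist1 was higher and 0 lower, beside 2.44% and 2.34% of all genes. Of 6 tested genes of antigen presentation Ly6e was lower than in the other ECs, beside 2.64% of all tested. Over the whole list of 13, 4 were lower (Ly6e, Ly6a, Ly6c1 and Cd74) and 0 higher, beside 2.34% and 2.44% of all genes. The 6 erythroid genes summed to 1083, 672 and 38.4 CPM in the proximal arterial cells and to 521, 1281 and 947 CPM in the other ECs. What lies behind these values was not tested.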
